A study of Homo sapiens with 8 samples.

Results

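The regions described here are the stretches of open chromatin in U-937, a human monocytic leukaemia line, that were called as peaks when all-trans retinoic acid (ATRA) was present and not when it was absent. ATAC-seq reads out accessible DNA by the sequencing tags that a transposase inserts there, and was run on 8 samples, 2 in each of 4 groups. Cells received for 24 h the DMSO vehicle, ATRA at 0.1 µM, Corin at 0.1 µM, or ATRA and Corin together at 0.1 µM each. The last group is called the combination. Corin is a hybrid inhibitor of the histone demethylase LSD1 and the histone deacetylases of the CoREST complex. The labels give all groups the same growth protocol and name no compound but the vehicle for the control cells, and they do not say whether the 2 samples of a group came from separate cultures. The authors deposited 1 peak list per group, with the replicates combined, so that replicate error is unknown for every value below and group differences were not tested. Intervals are 95% Wilson intervals over regions and cover counting error only.

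Overlapping peaks of the 4 lists were merged on 24 chromosomes into 161291 regions. The members were chosen by the presence of a peak in both the ATRA and the combination list and its absence from both the DMSO and the Corin list, which 5165 regions met. That is 3.20% of all merged regions. The ATRA list alone set against DMSO held 25755 regions without a DMSO peak, 16.0% of all, and the combination held 19033 regions without a Corin peak, 11.8% of all. These counts follow from the rule and describe how the members were reached. The mirror set, called with DMSO and with Corin and in neither list with ATRA, is referred to as the closed regions and had 6837 members. The lists held between 189896 and 222491 peaks, which merged into 94917 to 116563 regions per list. Starts of 7 of 8 myeloid marker genes were open in every list, among them SPI1, CSF1R and CD33, and MPO was not. Of 8 markers of other cell types, 1 to 3 starts were open, with COL1A1 open in every list, GATA1 in DMSO and Corin, and EPCAM in DMSO. Their part in the results was not tested.

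Retinoic acid acts through the receptors RARA, RARB and RARG, which bind DNA as dimers with a retinoid X receptor. The dimer sits on direct repeats of a short hexamer, best known with a spacer of 5 bases, and exchanges corepressors for coactivators when the ligand binds. In leukaemic myeloid cells the ligand is known for pushing cells toward granulocytes or monocytes, a program that runs on lineage factors such as PU.1 and the C/EBP family. Cells limit the signal through enzymes that the receptors themselves switch on, among them the CYP26 hydroxylases, which degrade retinoic acid, and DHRS3, which turns retinaldehyde back into retinol.

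The spacer-5 repeat is the element for which these receptors are known, so the members that carry it are printed first. A match was 2 hexamers in the same orientation, with 5 bases between them, and each hexamer was AGGTCA or one of its variants, which were AGTTCA and GGGTCA besides the variant GGTTCA. Below are the 200 bases around the summit of 6 such members, those with the best ranks among the ones that are printed, read 5′ to 3′ on the strand named (hg38). Capitals mark the 2 hexamers of the repeat, and other hexamers in a window are in lower case. Each region is named by the nearest protein-coding start or by an enclosing protein-coding gene.

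CYP26A1 region, chr10:93150402-93150601, minus strand: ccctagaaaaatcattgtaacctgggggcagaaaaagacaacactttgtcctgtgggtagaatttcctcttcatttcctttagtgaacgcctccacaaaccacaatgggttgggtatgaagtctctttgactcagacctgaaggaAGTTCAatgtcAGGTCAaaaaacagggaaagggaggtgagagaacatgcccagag
CYP26B1 region, chr2:71948772-71948971, plus strand: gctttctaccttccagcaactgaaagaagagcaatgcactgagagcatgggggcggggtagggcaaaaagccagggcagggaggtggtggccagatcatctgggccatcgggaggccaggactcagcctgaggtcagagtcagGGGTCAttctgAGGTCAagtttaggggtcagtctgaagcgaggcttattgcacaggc
SLC2A1 region, chr1:42949422-42949621, minus strand: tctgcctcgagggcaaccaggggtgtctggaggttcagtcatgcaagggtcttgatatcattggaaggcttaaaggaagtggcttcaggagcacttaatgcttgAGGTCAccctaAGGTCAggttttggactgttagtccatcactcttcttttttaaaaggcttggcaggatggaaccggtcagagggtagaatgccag
CLDN11 region, chr3:170429182-170429381, plus strand: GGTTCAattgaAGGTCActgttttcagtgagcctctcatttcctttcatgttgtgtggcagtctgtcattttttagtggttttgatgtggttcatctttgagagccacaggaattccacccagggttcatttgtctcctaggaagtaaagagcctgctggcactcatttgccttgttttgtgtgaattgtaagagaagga
TENM4 region, chr11:81071012-81071211, plus strand: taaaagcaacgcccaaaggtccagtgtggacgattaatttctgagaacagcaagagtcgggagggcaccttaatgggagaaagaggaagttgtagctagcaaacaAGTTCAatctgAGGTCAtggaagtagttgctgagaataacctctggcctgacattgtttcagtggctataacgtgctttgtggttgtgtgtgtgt
ITGA1 region, chr5:52738153-52738352, minus strand: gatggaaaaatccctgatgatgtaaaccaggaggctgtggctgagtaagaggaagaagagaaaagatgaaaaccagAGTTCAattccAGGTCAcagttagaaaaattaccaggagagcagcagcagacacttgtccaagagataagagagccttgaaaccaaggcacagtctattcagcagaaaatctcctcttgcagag

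The CYP26A1 and CYP26B1 regions led this group, and both genes encode hydroxylases that break down retinoic acid. The CYP26A1 region had a −log10 p of 130 in the ATRA list and 158 in the combination list, and was intergenic, 76257 bp downstream of the start of its gene. The CYP26B1 region had 59.8 and 86.2 and lay 193828 bp downstream of its start, also between genes. Its summits in the ATRA and combination lists were 153 bp apart, and the printed window is centred on the combination summit. The DMSO or Corin peak nearest to the CYP26A1 region was 25255 bp away, and the one nearest to the CYP26B1 region 1196 bp.

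The SLC2A1 region was in an intron of the gene of the GLUT1 glucose transporter and had a −log10 p of 89.1 with ATRA and 51.7 with the combination. The CLDN11 region, in an intron of a claudin gene, had 61.8 and 49.5. The TENM4 region was 1629682 bp upstream of the nearest protein-coding start and had 75.5 and 46.1. The ITGA1 region, 49314 bp upstream of the gene of an integrin alpha chain, had 48.8 and 45.3. A repeat in an intron of the glutathione reductase gene GSR ranked among them with 55.8 and 80.2 and is not printed. Of the 7 named here, the CYP26A1, CYP26B1 and GSR regions had the higher value in the combination list.

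The site of PU.1, GAGGAAGT, is shown because its share differed most from that of the regions closed with ATRA among the lineage factor sites searched. Among the 12 members with the best ranks, 4 held it, and they are shown with 12 bases on each side and the site in capitals. These were picked for display after their values were seen.

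RAB11A region, chr15:65837758-65837789, minus strand: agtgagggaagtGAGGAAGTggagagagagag
NFILZ region, chr19:8646540-8646571, plus strand: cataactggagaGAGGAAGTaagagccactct
AUH region, chr9:91199937-91199968, plus strand: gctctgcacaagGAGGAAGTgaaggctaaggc
OSBPL9 region, chr1:51578522-51578553, minus strand: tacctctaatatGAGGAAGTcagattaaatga

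The RAB11A match was 40 bp from the summit, the AUH match 1 bp, the OSBPL9 match 35 bp and the NFILZ match 73 bp. The RAB11A region, in an intron of the gene of a recycling-endosome GTPase, had −log10 p values of 335 in the ATRA list and 314 in the combination list. The NFILZ region had 259 and 208. The AUH region had 196 and 357, and the OSBPL9 region, in an intron of a gene of the oxysterol-binding family, had 298 and 198.

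The members were of low to middle strength within their lists. The −log10 p, which the authors' peak caller gave for each peak and which the rule needed to be present, ranged from 2.3 to 447 in the ATRA list with a median of 35.9. In the combination list it ranged from 2.04 to 461 with a median of 17.4. The fold over local background had a median of 5.34 with ATRA and 3.35 with the combination. On a scale where 100 is the strongest region of a list, the median rank percentile was 35 with ATRA and 25.2 with the combination. Low ranks were not particular to members. Closed regions had medians of 19.1 in the DMSO list and 19 in the Corin list. Regions called with DMSO and ATRA alone had 29.9 in the DMSO list and 24.1 in the ATRA list. Of the 5165 members, 11 were in the strongest 20% of the ATRA list, 3 in that of the combination list and 1 in both. A higher percentile in the combination than in the ATRA list was held by 1587 members (30.7%). The pileup solved from p and fold had a median of 82 fragments with ATRA and 63 with the combination, over most frequent backgrounds of 9.12 and 13.9, so the fold of a given pileup is smaller in the combination list.

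**Figure D1:**
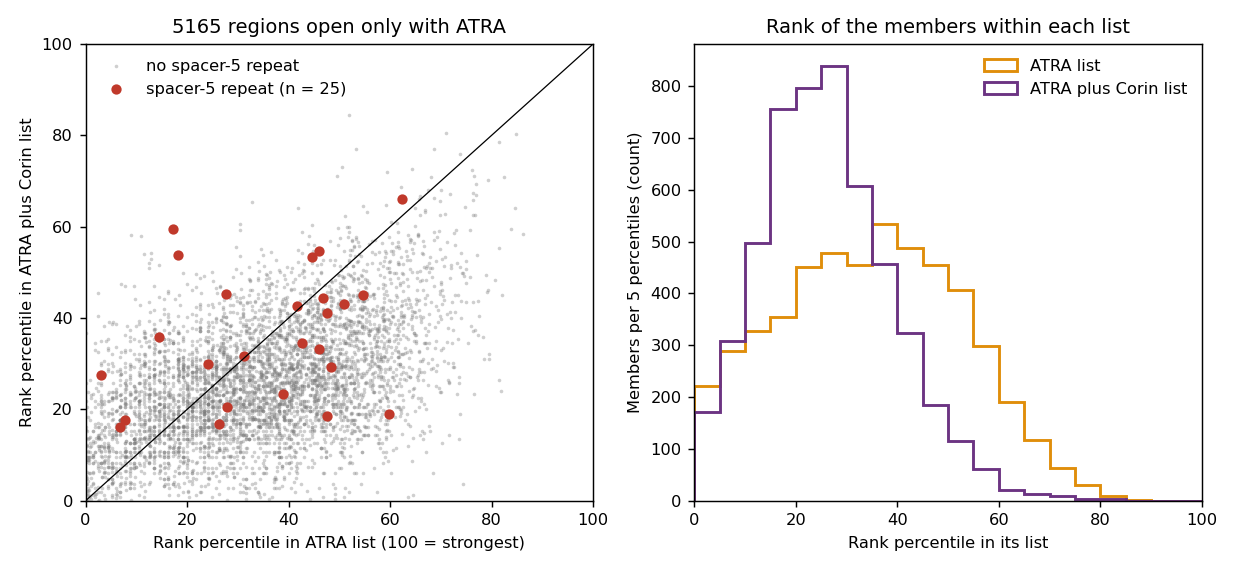
Left, rank percentile by −log10 p of each of the 5165 members in the ATRA list (x axis) and the ATRA plus Corin list (y axis), with the 25 members that carry a spacer-5 repeat in red and the line of equal rank. Right, number of members per 5 percentiles in each list; the medians are 35 and 25.2, and few members pass 80 in either list.

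The single member in the strongest 20% of both lists, chr14:103118909-103119435, lay 2041 bp upstream of the start of TNFAIP2, a gene known as inducible by tumour necrosis factor and retinoic acid. Its −log10 p was 408 with ATRA and 353 with the combination, at folds of 5.87 and 4.48, and its nearest DMSO peak was 598 bp away. Its summit window held a CTCF match and no PU.1 match. The member chr7:107914822-107915372, was in an intron of DLD, the gene of dihydrolipoamide dehydrogenase, and had 225 and 273 at folds of 21.9 and 19.5. The member in an intron of NCOA3, a nuclear receptor coactivator gene, at chr20:47576458-47577197, had 264 and 189 at folds of 14.9 and 13.5. Its nearest DMSO or Corin peak was 33047 bp away.

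The other 5 of the 12 best-ranked members were spread over the genome. The region nearest to the start of CXCR4, the receptor of the chemokine CXCL12, was 206816 bp upstream of it and had −log10 p values of 187 and 176. The region nearest to THBS1, the thrombospondin gene, had 169 and 205. The region nearest to GRK3, a receptor kinase gene, had 356 and 205, and that nearest to TPD52 had 253 and 224. A region in an intron of CCDC12 had 175 and 289. Of the 12, 8 were intronic, 2 intergenic and 2 within 1 kb of an annotated start, and the folds with ATRA spanned 4.04 to 21.9.

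The summits of the members sat at nearly the same base in both lists. The distance between the ATRA and the combination summit had a median of 11 bp, and it was at most 50 bp in 4586 members (88.8%, 87.9 to 89.6). In the closed regions the DMSO and Corin summits were a median of 33 bp apart, with 57.8% (56.6 to 58.9) within 50 bp. In the regions called with DMSO and ATRA and not with Corin or the combination, the median was 13 bp and the share 86.2%. In the 1604 regions called with DMSO and the combination alone, a pairing that matches neither compound, the median was 80 bp and the share 41.3% (38.9 to 43.8). Strength moved with this measure. In members up to the 10th percentile in the weaker of both lists, 65.3% of summit pairs were within 50 bp, against 97.2% above the 40th percentile. The closed regions in these strength classes had 32.5% and 97.8%, so that the gap between the sets was found in the weak classes and not in the strong one.

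Most members had a DMSO or Corin peak within 10 kb but none within 500 bp. The nearest DMSO or Corin peak was a median of 3216 bp away, 614 members (11.9%) had one within 500 bp and 1113 (21.5%) had none within 10 kb. The nearest protein-coding start was a median of 23508 bp away, compared with 22511 bp over all regions, and 1625 members (31.5%) were more than 50 kb from one. A protein-coding start was covered by 72 members. By the nearest start of any annotated transcript, 656 members were at promoters, defined as within 1 kb (12.7%, 11.8 to 13.6), against 15.7% of closed regions and 20.7% of all regions. Introns held 52.1% of members (50.7 to 53.4), 44.3% of closed regions and 43.6% of all regions. Exons held 7.47% of members and intergenic sequence 27.8%. Other sets were close to the members. Regions called in the ATRA list alone had 12.1% at promoters and 53.5% in introns. Those called with DMSO and ATRA alone had 13.5% and 50.3%, while regions called in all 4 lists had 30.2% at promoters.

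Members were more AT-rich than closed regions or all regions. Mean GC content in the 200-bp window was 43.8% ± 7.07 (SD over 5165 members), 53.3% ± 8.58 in closed regions and 50.8% ± 10.2 over all regions. CpG dinucleotides averaged 1.37 per window in members, 3.02 in closed regions and 4.06 over all, and 36.4% of member windows had none. The median width was 455 bp in members, 562 bp in closed regions and 560 bp over all. Regions called in the ATRA list alone were as AT-rich, at a mean GC content of 44.4%, and shorter, at a median of 272 bp. Regions called with DMSO and ATRA alone had 47.6% and 413 bp. The share of a chromosome's regions that were members ran from 2.04% on chromosome 21 (1.52 to 2.74) to 4.02% on chromosome 4 (3.57 to 4.52). Chromosome Y, where 0 of 3 regions were members, is left out of this range.

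Among sites of myeloid lineage factors, that of PU.1 differed most between members and closed regions. Each of 18 motifs was searched on both strands of the 200-bp window. PU.1, the ETS factor of the myeloid lineage, had a match in 793 members (15.4%, 14.4 to 16.4), in 1.64% of closed regions (1.36 to 1.97) and in 6.73% of all regions. The interferon-stimulated element of IRF factors, GAAANNGAAA, was in 7.2% of members, 1.16% of closed regions and 3.07% of all. The composite of an ETS and an IRF site, GGAANNGAAA, was in 4.05%, 1.57% and 2.84%. It can run on from a PU.1 site, with which it shares GGAA. The C/EBP site TTGCNNAA was in 17.2%, 10.5% and 14.5%, and the RUNX site TGTGGTT in 9.18%, 5.78% and 8.27%. At least 1 of PU.1, C/EBP, the IRF element or RUNX was found in 2192 members (42.4%, 41.1 to 43.8), 17.7% of closed regions and 28.7% of all. Other sets were close to the members for some of these sites. The 18378 regions called in the ATRA list alone had C/EBP in 17.9%, RUNX in 9.03%, the IRF element in 6.67%, the composite in 4.95% and PU.1 in 11.9% (11.4 to 12.3). Regions called in all 4 lists had C/EBP in 16.4%, RUNX in 9.76% and PU.1 in 7.53%, so C/EBP and RUNX did not set members apart. PU.1 was also in 12.8% of the 5921 regions called in all lists but Corin and 10.8% of the 1536 called in all but DMSO. Regions called with DMSO and ATRA alone had it in 8.62%.

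Several other motifs were scarcer in members than in closed regions and in all regions, and some were not. AP-1, the JUN and FOS dimer site TGANTCA, was in 309 members (5.98%, 5.37 to 6.66) against 24.4% of closed regions (23.4 to 25.4) and 12.2% of all. The low share was common to the 7 patterns of calls without a Corin peak, which spanned 4.44% to 8.11%, while the 8 patterns with one spanned 13.5% to 24.4%. CTCF, searched as CCNNNAGGNGGC, was in 1.43%, 2.91% and 4.39%. The E-box CAGCTG was in 9.85%, 20% and 15.1%, and the KLF site CCACNCCC in 4.78%, 10.3% and 8.13%. The EGR site GCGTGGGCG was found in 0 of 5165 members, which allows a share of up to 0.0581% (3 counts), against 0.102% of closed regions and 0.139% of all regions. The GFI1 site AATCACAGC, of a repressor that works with CoREST, was in 0.503% of members (0.344 to 0.737), 0.395% of closed regions and 0.355% of all, with overlapping intervals between members and closed regions. The ETS site of GC-rich promoters, CCGGAAGT, was in 8 members (0.155%, 0.0785 to 0.305), 0.263% of closed regions (0.167 to 0.416) and 0.791% of all. The MYC and MITF site CACGTG was in 1.82% and 3.67%, and the MAF site TGCTGAC in 3.48% and 3.88%. Higher in members than in all regions were the STAT site TTCNNNGAA, which was in 6.7% of members and 5.11% of all, and the octamer ATGCAAAT, in 1.37% and 0.967%. These shares were not particular to members. Regions called in the ATRA list alone had the STAT site in 6.6% and the octamer in 1.25%. They had CTCF in 1.34%, the E-box in 10.4% and the KLF site in 4.36%.

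**Figure D2:**
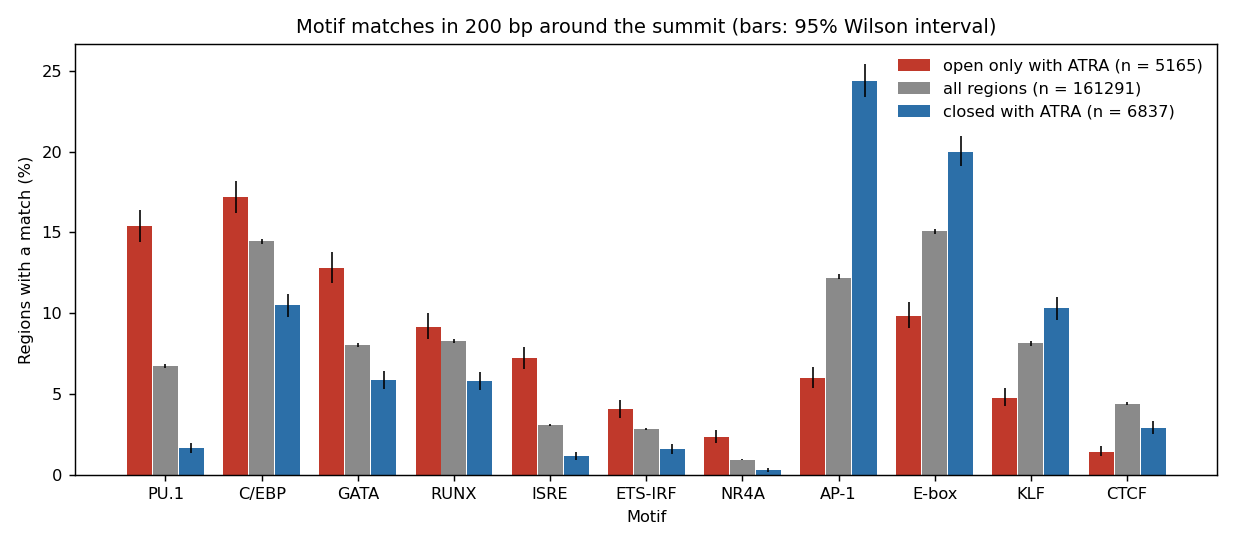
Share of regions with a motif match (y axis, %) for 11 motifs (x axis) in members (red), all merged regions (grey) and closed regions (blue), with 95% Wilson intervals. PU.1 matches are at 15.4% in members and 1.64% in closed regions, and AP-1 matches at 5.98% and 24.4%.

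Because members are AT-rich, the shares were also read within 3 classes of GC content. The EGR site, CCGGAAGT and CACGTG, which contain CG, were not read in this way. PU.1 stood at 15.4%, 15.6% and 13.9% of members in the low, middle and high class, against 9.24%, 7.07% and 3.65% of all regions and 2.11%, 1.66% and 1.41% of closed ones. AP-1 stood at 6.62%, 5.27% and 3.06% of members against 47.5%, 28.7% and 10.6% of closed regions. For C/EBP the order turned against all regions in the low class, with 19.6% of members and 23.5% of all. The GATA site AGATAA was in 12.8% of members and 8.02% of all without the classes, but in 15.8% and 14% within the low class. The E-box, too, came closer, with 6.92% of members and 8.66% of all in the low class. In the high class its order turned, with 23.1% of members and 20.6% of all. The KLF site was in 2.45%, 7.21% and 16.2% of members by class, against 2.51%, 7.34% and 15% of all regions. Its lower share in members thus did not hold within the classes. The monomer site of NR4A receptors, AAAGGTCA, contains the AGGTCA hexamer. It was in 2.69% of members and 1.38% of all in the low class, and in 2.32% and 0.937% without the classes.

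Strength within the list moved with the PU.1 share. Members up to the 10th percentile in the weaker of both lists held a PU.1 match in 9.49% of cases, and those above the 40th percentile in 19.1%. The AP-1 share of members was 6.81% and 5.15% in these classes, while in closed regions it was 8.97% and 68.8%. The PU.1 share of closed regions was 1.45% and 2.02%.

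PU.1 matches clustered at the summit. Within 200 bp on either side, members had 882 PU.1 matches, of which 704 (79.8%) were within 50 bp of the summit. In regions called in all 4 lists the share was 64%, and in closed regions 35.6% of 194 matches. AP-1 matches showed the reverse, with 26.3% of 639 matches near the summit in members and 62.2% of 2373 in closed regions. IRF elements had 42.1% of matches near the summit in members, and C/EBP sites 37.2%.

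**Figure D3:**
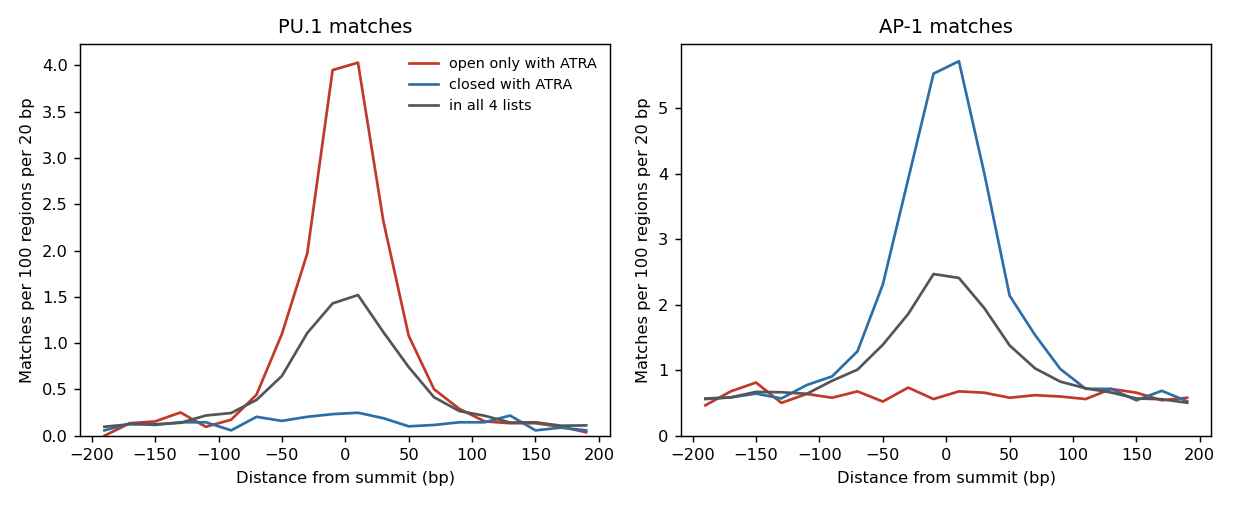
PU.1 (left) and AP-1 (right) matches per 100 regions in bins of 20 bp (y axis) by distance from the summit in bp (x axis), for members (red), closed regions (blue) and regions called in all 4 lists (grey). The PU.1 curve of members and the AP-1 curve of closed regions peak at the summit, while AP-1 in members is flat.

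A count of all 32896 distinct 8-base words, with a word and its reverse complement taken as 1, was made without a motif list. The word with the largest gap between members and closed regions was AAGAGGAA, in 16.7% and 1.68%, followed by ACTTCCTC, the reverse complement of the PU.1 site, in 15.4% and 1.64%. Most of the words ranked next, such as AGAGGAAG and AACTTCCT, overlap these. Runs of A were also among them, with AAAAAAAA in 10.8% and 3.63% and AAAAAAAG in 9.39% and 2.33%. The word count was not read within classes of GC content.

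Among direct repeats with spacers of 0 to 10 bases, the spacer of 5 had the highest share in members. It was present in 25 members (0.484%, 0.328 to 0.714), in 2 closed regions (0.0293%) and in 146 of all regions (0.0905%, 0.077 to 0.106). The spacer of 2, also known to bind retinoid receptors, was in 21 members (0.407%, 0.266 to 0.621), 0.161% of closed regions and 0.17% of all. It was in 9 of the 2428 regions called with Corin and the combination alone (0.371%, 0.195 to 0.703), where the spacer of 5 was in 1 (0.0412%). The spacer of 1 was in 4 members (0.0774%), near the 0.0719% of all regions. The spacer of 4, the element of thyroid hormone receptors, was in 2 members (0.0387%). The other spacers lay between 0.0581% and 0.174% of members. At least 1 hexamer, in a repeat or not, was in 41.2% of members (39.8 to 42.5), 34.6% of closed regions, 34.8% of all and 40.7% of the regions called with Corin and the combination alone. No spacer-5 repeat was in the window of 5140 of the 5165 members.

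**Figure D4:**
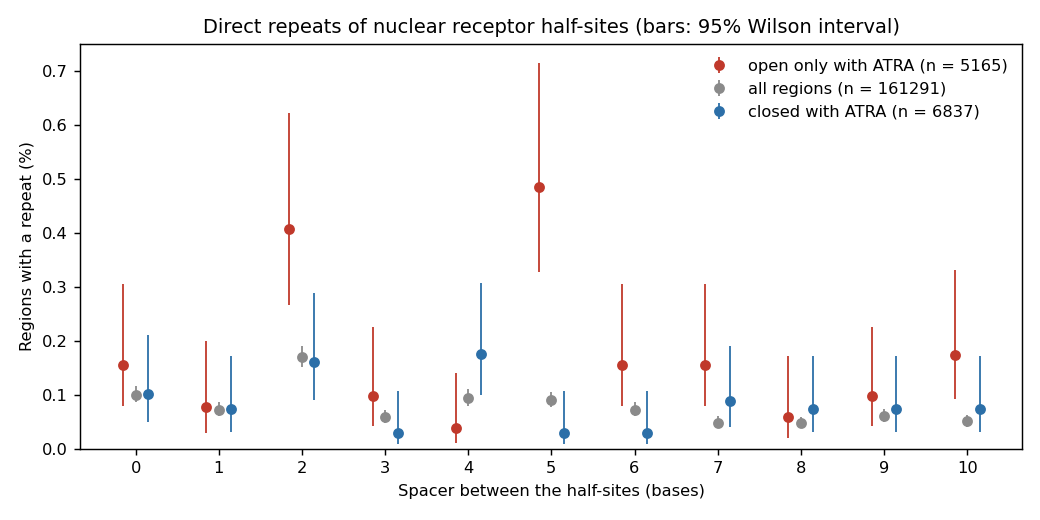
Share of regions with a direct repeat (y axis, %) by spacer in bases (x axis) for members (red), all merged regions (grey) and closed regions (blue), with 95% Wilson intervals. In members spacers 5 (0.484%) and 2 (0.407%) stand above the rest.

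The 25 spacer-5 repeats were mostly away from genes' starts. Of the 25 members, 12 were intronic, 10 intergenic, 2 exonic and 1 at a promoter. The repeat was within 50 bp of the summit in 17 of 25, but the 200-bp window itself limits this distance. In windows of 400 bp, 17 of 31 repeats (54.8%) were that close, against 32% of 97 in regions called in all 4 lists. Of the 25, 12 fell among the 1722 best-ranked members, 9 among the next 1721 and 4 among the remaining 1722. The commonest pairs were AGGTCA with AGGTCA (7) and AGTTCA followed by AGGTCA (6). A PU.1 match shared the window in 4 of 25, and AP-1 in 4. Weaker carriers included a region in an intron of ARG1, the arginase gene, with −log10 p values of 114 and 12.1, one 9732 bp upstream of STING1, the gene of an innate immune adaptor, with 64.3 and 12.1, and an exonic one in CTSC, the gene of cathepsin C, with 24.2 and 10.5. Regions in an intron of LRBA and in an exon of RAB3C went the other way, with 16.1 and 112, and with 16.7 and 82.

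The regions just outside the rule were read in classes of the DMSO or Corin call that kept them out, as a description. Regions called with ATRA and with the combination, and also with DMSO or Corin at a −log10 p under 5, numbered 214 and had a PU.1 match in 9.81% and a spacer-5 repeat in 0 of 214, which allows up to 1.4%. Those with a DMSO or Corin call of 5 to 10 numbered 1872, with PU.1 in 11% and the repeat in 7 (0.374%). At 10 to 20 there were 5191, with 11.4% and 11 repeats (0.212%), at 20 to 50 there were 12296, with 9.32% and 7 repeats (0.0569%), and at 50 and above 54187, with 7.29% and 40 repeats (0.0738%). The lowest −log10 p of a member was 2.3 in the ATRA list and 2.04 in the combination list, and the weakest DMSO or Corin call that kept a region out was 2.27. Regions called in the ATRA list alone numbered 18378 and had PU.1 in 11.9% and the repeat in 0.0925%.

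Around genes, members were counted within 50 kb of the gene body. Of 20007 protein-coding genes, 6241 (31.2%) had at least 1 member there, and 7836 (39.2%) had a closed region. Of 22 genes of retinoid handling and receptors, 9 had one, with 13 members among 440 regions (2.95%, 1.73 to 4.99), close to the 3.20% over all regions. The same 440 regions held 20 closed ones (4.55%), near 11 of the 22 genes. DHRS3 had 5, the best of which, 14.3 kb upstream at chr1:12632231-12632783, had −log10 p values of 51.1 with ATRA and 84 with the combination. RARA, the retinoic acid receptor alpha gene, had 1 at chr17:40323706-40324490, with 80.5 and 64.2. RXRA, which encodes the partner receptor, had 1 that lay 142 kb downstream of its start, with 234 and 64.1. RARB had 1 within the gene at chr3:25460777-25461653, with 79.4 and 14.3.

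Other receptor and enzyme genes had 1 member each. The member of RARG had −log10 p values of 3.29 and 13.2. DHRS9 and RDH10, which encode enzymes that oxidise retinol, had members with 72.8 and 27.2, and with 69.1 and 4.26. ALDH1A2, which makes retinoic acid from retinaldehyde, had 1 intronic member with a PU.1 match, with 34.1 and 23.9. BCO1, which cleaves beta-carotene, had 1 with 67.1 and 21.8. The other 13 genes of the list, had none within 50 kb. CYP26C1, CRABP2 and STRA6 were among these, as were CYP26A1 and CYP26B1, whose members lay farther out.

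Of 16 known targets of retinoic acid, 10 had a member (62.5%), with 24 members among 322 regions (7.45%, 5.06 to 10.9) and 5 closed regions (1.55%). The list was drawn up with earlier results of these data known. TGM2, the tissue transglutaminase gene, held 9 of the 24. CEBPE, the gene of a C/EBP factor of late granulocytic cells, had 1 with a PU.1 match at chr14:23128981-23129621, 9.05 kb upstream, with −log10 p values of 190 and 51.2 at folds of 14.2 and 6.07. ASB2, which encodes a ubiquitin ligase subunit, had 1 with 91.2 and 56.6. PRAM1, an adaptor gene, had 1 located 1.7 kb upstream, with 97.7 and 85. ICAM1, an adhesion receptor gene, had 1 with 223 and 8.53, the largest difference between both lists among the best members of these 10 genes. TNFAIP2 and HIC1 had 3 each, and SMAD3 and PLAAT4 had 1 each. UBA7, RARRES1, CD38, DUSP6, CCL2 and NRIP1 had none.

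Of 20 myeloid transcription factor genes, 8 had a member, with 19 members among 508 regions (3.74%, 2.41 to 5.77) and 21 closed regions (4.13%). RUNX2 and MYB had 5 each, and their best had −log10 p values of 184 and 54.4, and of 79.4 and 33.5. RUNX1 had 3, the best with 72.2 and 48.7, and IRF8 had 2, the best of which held PU.1 and AP-1 matches and had 22 and 33.6. KLF4, EGR2, NR4A1 and CEBPB had 1 each. SPI1, the gene of PU.1 itself, had none, and neither did CEBPA, CEBPD, GFI1, MYC or IRF4.

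Of 32 effector genes of monocytes and granulocytes, 22 had a member (68.8%), with 29 members among 537 regions (5.4%, 3.79 to 7.65) and 19 closed regions (3.54%). CYBB, the catalytic subunit gene of the phagocyte oxidase, had 3, the best with 71.7 and 92.3 at chrX:37812080-37812750. CLEC7A, the beta-glucan receptor gene, had 3, the best with 25.8 and 31. S100A8, S100A9 and S100A12, genes of calcium-binding alarmins, shared their best member, with 78.8 and 76.2. S100A8 and S100A12 had 2 within 50 kb and S100A9 had 1, so these 3 genes are not independent. FPR1 and FPR2, receptor genes for formyl peptides, had 2 each and shared the best, with 81.6 and 60.4. ITGB2 and ITGAX, integrin chains of phagocytes, had 1 each with 100 and 29.1, and with 85.7 and 26.7 and a PU.1 match. CD14, CCR2 and CD86 had 2 each, and TREM1 had 1 with a PU.1 match, with 109 and 24.8. ITGAM, LYZ, MPO, TLR2 and TLR4 were among the 10 with none.

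Of 12 genes of the CoREST complex and its partners, 5 had a member, with 6 members among 294 regions (2.04%, 0.939 to 4.38) and 12 closed regions (4.08%). RCOR1 and RCOR2, genes of CoREST scaffold proteins, had 1 each with 48.8 and 21.7, and with 106 and 31.9. KDM1A, the gene of LSD1, had 1 with 16.1 and 11.5, HDAC2 had 1 with 24.2 and 11.3, and GSE1 had 2.

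Members were also counted in stretches of up to 200 kb, and the stretches named here were picked for the most members. The stretch of up to 200 kb with the most members, chr20:38108303-38279203, held 11 among 51 regions (21.6%) and spans TGM2, and it held 2 closed regions. Within 150 kb of the TGM2 start there were 12 members among 61 regions (19.7%). The best, chr20:38204641-38205552, lay 38.5 kb upstream with −log10 p values of 260 and 131. Beside it, 37.6 kb upstream, a member had 22.4 and 31.3. The members 16 kb and 20.6 kb upstream had 92.6 and 136, and 57.5 and 93, while 4 in the gene body or at its end had 12.1 to 73.7 with ATRA and 6.05 to 35.8 with the combination. Of the 11 members in the stretch, 1 held a PU.1 match (9.09%) and 0 a spacer-5 repeat.

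Further stretches held 7 to 9 members. PPP3R1 and PLEK, the gene of the platelet and leukocyte protein pleckstrin, had 9 of 61 regions. PIK3CG, the catalytic subunit gene of a leukocyte PI3 kinase, had 8 of 43. A stretch with 8 of 32 ran from VPS13D to just short of the 3′ end of DHRS3, with none inside DHRS3. CEACAM1 and CEACAM8, genes of granulocyte adhesion molecules, had 8 of 25, TOP1 had 7 of 28 with PU.1 matches in 3, MYB and AHI1 had 7 of 55, and PALLD had 7 of 32. Regions called in the ATRA list alone numbered 9 at PIK3CG, 6 at PALLD, and 1 each at TOP1 and at the CEACAM genes. In the stretch from VPS13D, 0 of 8 held a PU.1 match. Near CYP26A1, 3 of 18 regions within 150 kb were members, with −log10 p values of 21.8 and 18.6, 113 and 32.5, and 130 and 158, and their midpoints lay 66 to 77.3 kb downstream of the gene's outermost start. The farthest is the region with the spacer-5 repeat, for which the distance above runs from its edge to the nearest protein-coding start.

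**Figure D5:**
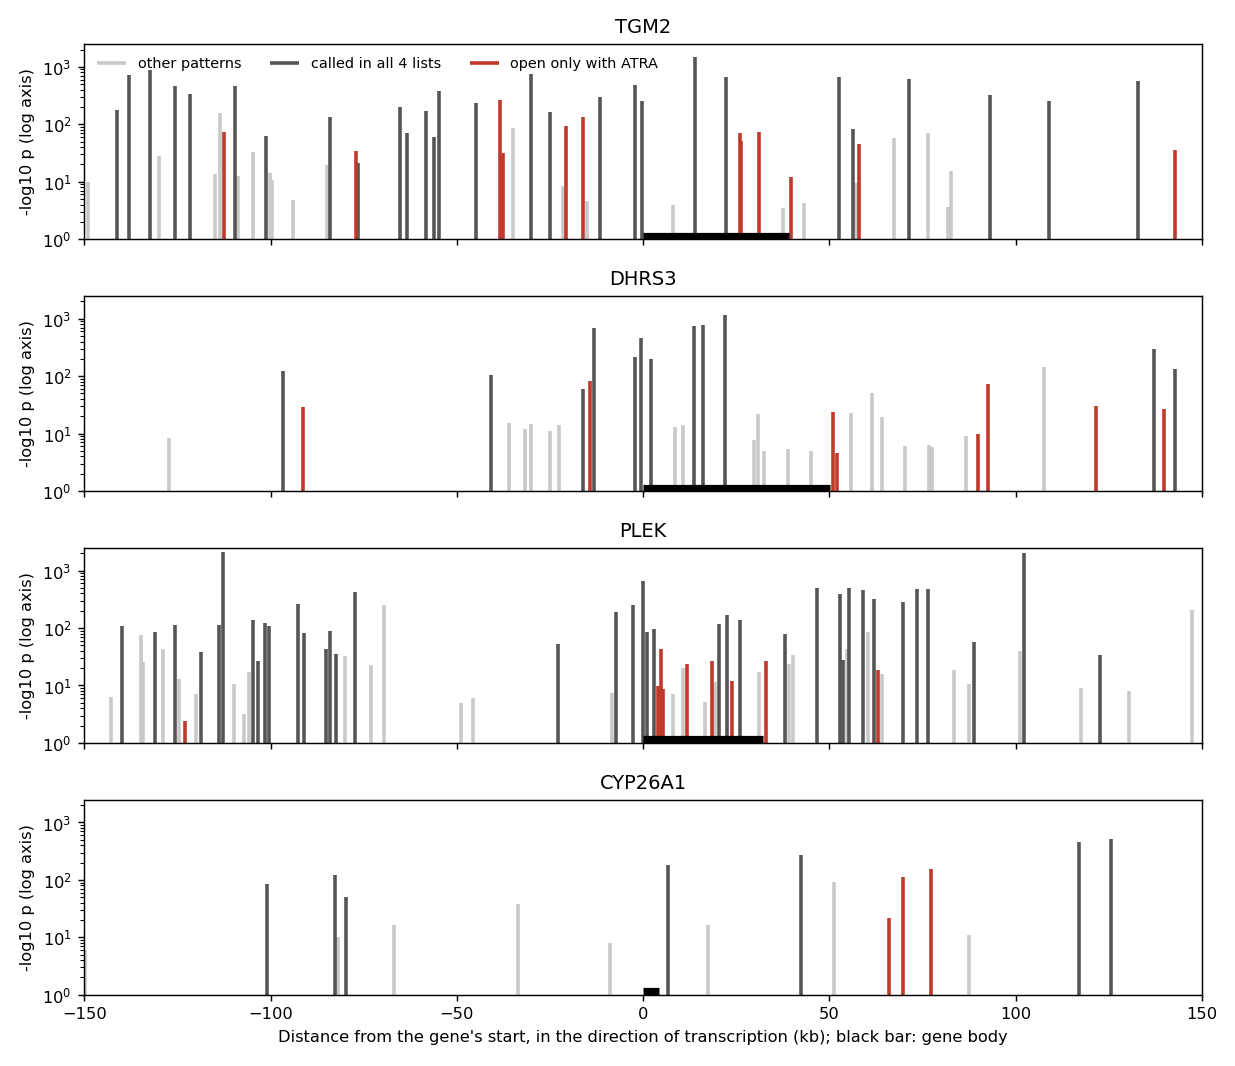
Merged regions within 150 kb of the starts of TGM2, DHRS3, PLEK and CYP26A1 by distance from the start in kb (x axis), with the highest −log10 p over the 4 lists on a log axis (y axis). Members (red) number 12, 8, 9 and 3 and stand among regions called in all 4 lists (dark grey) and other patterns (light grey).

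Counted within 10 kb of the gene body, 3298 of 20007 protein-coding genes had at least 1 member and 35 had at least 5. The genes named here were picked for their high counts, while 3.20% of all regions were members. The highest counts were at long genes as well as short ones. SLC8A1, a sodium-calcium exchanger gene of 514 kb, had 8 of 45 regions (17.8%) and GMDS had 8 of 47 (17%). The ion channel gene ASIC2 had 8 of 54 (14.8%) and the cytoskeletal gene PALLD 8 of 61 (13.1%). PLEK, at 32.2 kb, had 7 of 24 (29.2%), and PIK3CG, at 43.7 kb, had 6 of 23 (26.1%). TFEC, a transcription factor gene of the MITF family, had 6 of 18 (33.3%). RFLNA, MGLL, which encodes monoglyceride lipase, and MED12L had 6 of 43, 53 and 59 (14%, 11.3% and 10.2%). None of these 10 had more than 2 closed regions nearby.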

How the data were processed

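ATAC-seq of U-937 cells covered 8 samples, 2 in each of 4 groups. The authors deposited 1 narrowPeak list per group, with replicates combined, and per the submitters' processing notes used cutadapt, Bowtie2, SAMtools, Picard and MACS2 on hg38. Settings are not given in the sources used here. The deposited fold is a ratio to local background. The deposited p and q of each peak are on a −log10 scale. Read depth is unknown. No column of per-sample values was left out.

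Peaks sharing at least 1 bp were merged with Python 3.11.15 and pandas 2.3.3, and the member count was checked against bedtools 2.31.1. The motif search and merging were tested on simulated data. Sequence of 200 bp around each region's best summit was read with pysam 0.24.0. Annotation was GENCODE release 44. Pileup and background were solved from p and fold, and came out whole within 0.05 for 99.96% to 99.98% of peaks.

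Named were the 12 members with the best value of the worse of both within-list ranks, the 6 best with a spacer-5 repeat, listed genes with a member within 50 kb and the 10 genes with most members within 10 kb. Of the items this selects, 2 are not reported here. The members and lists were chosen with earlier results of these data known. No tests were run, since a group had 1 list.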

Additional observations from a re-analysis of the deposited data

How the results depend on the processing

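Each of 7 results was recomputed under stricter limits, other merging and overlap, equal list lengths, other windows and other distances, 63 values in all, of which 51 stayed within the interval of the reported share or median or within 1.5 times the reported count. The number of members lay between 4551 and 5165. With a −log10 q of at least 5 in all 4 lists there were 5152, of which 4612 were among the reported members, and with lists of equal length 4840, of which 4185 were. A floor at the lowest −log10 p of the DMSO list (2.79), chosen after seeing the data, gave 5163. The window set the motif shares. PU.1 was in 12.9% of members with 100 bp, 16.5% with 400 bp and 12.1% with the window at the midpoint of the region. AP-1 was in 3.1% with 100 bp and 11.5% with 400 bp, and the spacer-5 repeat in 0.31% with 100 bp. The promoter share was 11.5% without members that had a DMSO or Corin peak within 500 bp, 24.5% with a limit of 2.5 kb and 4.74% with protein-coding transcripts only. Of the 38 retinoid genes, 19 had a member within 50 kb and 29 within 100 kb. The median summit distance was 10 bp with a −log10 q of at least 5 in the ATRA and ATRA_Corin lists and 10 bp with lists of equal length. The closed regions fell from 6837 to 4044 with the stricter limit in all lists, and their AP-1 share was then 36.6%. No paired analysis was possible because each group has 1 list with its replicates combined. Depth limits what absence means, since a region without a call in the DMSO or Corin list can hold signal under the caller's threshold.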
